A study of Mus musculus with 4 samples.

Results

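The genes described here are 9 genes of blood stem cells and early progenitors, chosen by name: Cd34, Egfl7, Hoxa9, Meis1, Lmo2, Erg, Myb, Sox4 and Hlf. All 9 were found by symbol among the 26026 genes of the deposited table. They were read in mouse bone marrow-derived cells, labelled BMDC, grown with 100 ng/mL Flt3 ligand, a growth factor under which marrow progenitors give rise to dendritic cells, with the medium replenished at day 3. The 4 libraries of polyadenylated RNA came from wild-type and Nfkb1-/- cells at day 3 and at day 5, 1 library for each, with the strain of both genotypes labelled C57/B16. The labels do not say how many animals each culture came from, and Nfkb1-/- is the allele as labelled. The study asked how RelA and p50, the product of Nfkb1, act together while these cells differentiate, and its title concerns the self-renewal of Flt3-driven myeloid leukemia.

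Blood stem cells and multipotent progenitors hold a shared set of transcription factors that is shut down step by step as cells commit to a lineage. HOXA9 binds DNA together with its cofactor MEIS1, LMO2 is an adaptor that joins DNA-binding proteins into complexes in which the ETS factor ERG also takes part, and MYB, SOX4 and HLF act in progenitor growth and survival. Several of these genes, among them Hoxa9, Meis1, Myb and Erg, are known to sustain myeloid leukemia when active. None of them is restricted to stem cells: Cd34, Egfl7 and Erg are also genes of endothelium, Cd34 of mast cells, and Sox4, Myb and Erg of lymphoid precursors.

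With 1 library per group no difference below has a replicate check and none carries a p-value. Levels are RPKM, reads scaled to transcript length and to library size. Differences are log2 differences of RPKM + 1, a scale that understates the change of low genes, and a gene was counted as higher or lower by the size rule when this difference was at least 1. It was read over 11786 genes, those averaging 1 RPKM or more across the 4 libraries. Of the 9 genes 8 passed that filter, and Hlf, at a mean of 0.967 RPKM, did not. Ratios are ratios of read rates with exact 95% intervals that cover counting error only. Library totals recovered from the values ran from 15255070 to 16215214 reads. The targeted gene, Nfkb1, stood at 74.8 RPKM in wild type and 56.0 in the knockout at day 3, and at 114 and 64.7 RPKM at day 5, lower in both libraries labelled knockout and not absent. A value per gene does not separate a deleted stretch from the rest of the transcript, so it checks the labels only in part. All 11 conventional dendritic cell markers examined passed the filter and summed to 1020 RPKM in wild type and 686 in the knockout at day 3, and to 1840 and 774 RPKM at day 5. Of these sums H2-Aa alone held 651 and 333 RPKM at day 3 and 1190 and 357 at day 5, while Xcr1 held 3.00 and 1.34, then 14.2 and 2.60. By gene, 9 of the 11 were lower in the knockout at day 3 and 10 at day 5. Markers of other cells were present too: 10 late neutrophil markers summed to 32300 and 22800 RPKM at day 3 and to 13000 and 2780 RPKM at day 5, and at day 5 the knockout was lower for 9 of the 10 by the rule (median -2.26).

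The 3 genes with the largest genotype differences at day 3 were Egfl7, Cd34 and Sox4, and at day 5 that of Egfl7 was again the largest. The 250 bases before their start sites are shown so that these stretches can be set beside the values that follow. They are RefSeq sequences of build GRCm38.p6, 5′ to 3′ on the gene's strand. The window of Egfl7, at chr2:26583615-26583864 (+), is the one of its 3 listed windows nearest the start of the accession in the table. That of Cd34 lies at chr1:194938571-194938820 (+) and that of Sox4 at chr13:28953700-28953949 (-). Capitals mark the ETS core GGAA and the MYB motif TAACNG on either strand, so that they also appear as TTCC and CNGTTA.
Egfl7: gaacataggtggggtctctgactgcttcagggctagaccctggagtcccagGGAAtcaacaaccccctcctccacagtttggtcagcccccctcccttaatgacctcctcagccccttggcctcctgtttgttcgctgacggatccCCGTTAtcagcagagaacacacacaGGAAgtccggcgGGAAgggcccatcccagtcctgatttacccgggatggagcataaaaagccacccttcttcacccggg
Cd34: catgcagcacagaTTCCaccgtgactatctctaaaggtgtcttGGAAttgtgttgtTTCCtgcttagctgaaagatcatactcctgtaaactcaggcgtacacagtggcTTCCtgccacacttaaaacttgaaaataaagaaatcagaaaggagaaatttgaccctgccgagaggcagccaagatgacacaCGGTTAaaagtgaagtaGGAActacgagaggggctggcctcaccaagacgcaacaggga
Sox4: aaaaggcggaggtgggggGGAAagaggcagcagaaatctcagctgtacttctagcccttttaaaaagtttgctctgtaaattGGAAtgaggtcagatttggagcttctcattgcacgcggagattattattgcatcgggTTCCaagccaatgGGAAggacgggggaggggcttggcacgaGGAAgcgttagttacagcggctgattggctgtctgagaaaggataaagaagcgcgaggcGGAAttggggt

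Windows were at hand for 8 of the 9 genes, 12 windows in all. The kappaB consensus, the site bound by NF-kB dimers, was searched on both strands and was found in 0 of these 12 windows, against 7.25% of the 32851 windows of the same length in the table. The ETS core was in 11 of the 12, against 93.4% of all windows. The MYB motif was in 4 of the 12, against 19.8%, namely 1 window each of Cd34, Egfl7, Meis1 and Erg, and it began 59 bases before the start of Cd34 and 104 before that of Egfl7. The MEIS motif TGACAG was in 2, against 15.9%. No match says only that these letters are not in these windows.

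**Figure D1:**
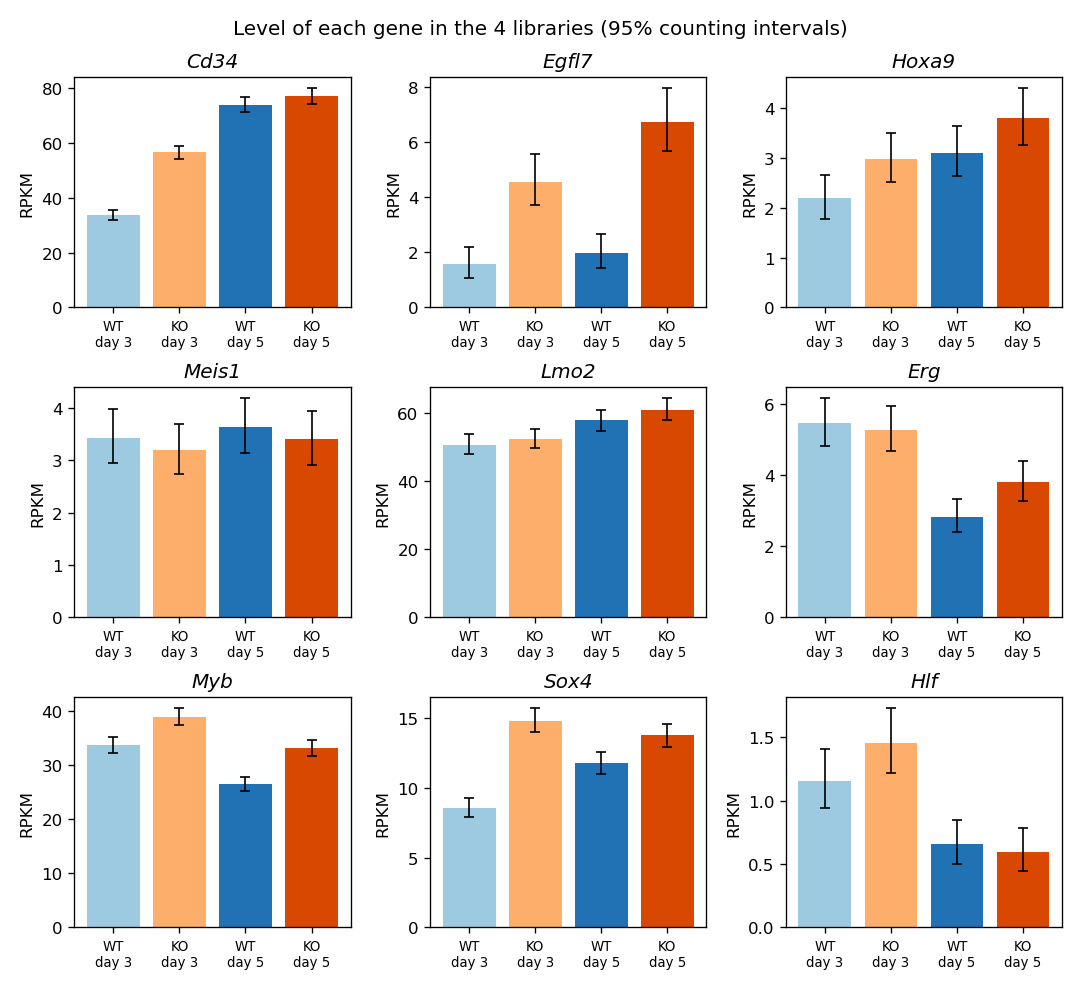
RPKM of each of the 9 genes in the 4 libraries, 1 bar per library (WT, wild type; KO, Nfkb1 knockout), with exact 95% Poisson counting intervals as error bars and each panel on its own axis from 0. Egfl7 is higher in both knockout libraries, Cd34 is lowest in wild type at day 3, and Erg and Hlf are lower at day 5.

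Per transcript length, 3 of the genes were much more abundant than the rest. Cd34, Lmo2 and Myb made up between 82.1% and 86.8% of the summed RPKM of the 9 genes, which was 140 RPKM in wild type at day 3, 180 in the knockout at day 3, 182 in wild type at day 5 and 203 in the knockout at day 5. Sox4 was intermediate, and Egfl7, Hoxa9, Meis1, Erg and Hlf stood below 7 RPKM in every library. The order of these totals was the reverse of that of the late neutrophil markers, whose part in them was not tested. The totals of 180 and 182 RPKM hardly differed. Cd34, Hoxa9 and Lmo2 had this order of libraries, and Cd34 ran from 33.7 to 77.1 RPKM. Myb, Erg and Hlf did not, and were lower at day 5 than at day 3 in both genotypes. The lowest total was that of wild type at day 3, and the early progenitor genes were present in every library at both days. In bulk RNA, more cells that carry a transcript and more transcript per cell cannot be told apart.

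Of the 8 genes past the filter, Egfl7 was higher in the knockout by the size rule at day 3, where 0.976% of all genes were, and again at day 5, where 1.16% were. No member was lower by the rule, against 0.882% of all genes at day 3 and 3.22% at day 5, so that 1.86% and 4.39% passed it in either direction. Across all genes 0.331% were higher by the rule at both days, 39 genes with Egfl7 among them. The median difference of the 8 genes was 0.26 at day 3 and 0.22 at day 5, against 0.13 and 0.01 for all genes, with 6 and 7 of the 8 above 0, where 66.6% and 51.2% of all genes were. The day 3 value moved with the scaling. After rescaling to the median ratio of the libraries, the median of all genes at day 3 became -0.02 and that of the 8 genes 0.12, and the 115 higher and 104 lower genes became 70 and 156.

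Egfl7, a secreted protein with epidermal growth factor-like domains that was first known from endothelium, had the largest genotype difference of the 9. It stood at 1.56 RPKM in wild type at day 3 (32 reads), 4.57 in the knockout at day 3 (100 reads), 1.98 in wild type at day 5 (43 reads) and 6.74 in the knockout at day 5 (140 reads). Both knockout libraries lay above both wild-type libraries, and the counting intervals of the genotypes did not overlap. Knockout over wild type, the ratio was 2.94 at day 3 (1.96 to 4.53) and 3.41 at day 5 (2.41 to 4.91), differences of 1.13 and 1.38. Among the 11786 genes these ranked 69 and 52 from the top. The change of the genotype ratio between the days was 1.16 (0.686 to 1.96), an interval that includes no change. Because the level is low, the difference depends on the pseudocount, and with 5 RPKM added it was 0.55 at day 3 and 0.75 at day 5, under the size rule.

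Within each library, a ratio of 2 genes is free of any scaling between libraries. Egfl7 over Lmo2 in RPKM was 0.0306 (0.0209 to 0.0435) in wild type and 0.0872 (0.0704 to 0.107) in the knockout at day 3, and 0.0342 (0.0246 to 0.0463) and 0.110 (0.0921 to 0.131) at day 5. The pairs of genes compared in this way were chosen after their values were seen. Of 13 endothelial markers 5 passed the filter. Of these 0 were higher in the knockout by the rule at either day, and 1, Vwf, was lower at day 5 (-1.31). The 13 markers summed to 32.8 RPKM in wild type and 33.7 in the knockout at day 3, and to 60.4 and 29.5 at day 5. Vwf is also on the megakaryocyte list given below. In the same order it stood at 12.6 and 12.5 RPKM at day 3 and at 30.8 and 11.9 at day 5. Kdr and Tie1 stood at 2.28 RPKM or less in every library. These sums are therefore not a level of endothelium alone. Cdh5, the cadherin that defines endothelium, lay between 0.440 and 1.21 RPKM. Of the other cell types, monocytes had markers whose sum was higher in both knockout libraries than in both wild-type libraries, as for Egfl7. Their 8 genes summed to 5670 RPKM in wild type and 7920 in the knockout at day 3 and to 5270 and 6760 RPKM at day 5, with medians of 0.48 and 0.50 and 6 of 8 above 0 at each day. By the size rule 1 was higher at day 3 (Ly6c2, 1.03), and 2 were higher (Ly6c2, 1.04, and Cd14, 1.37) and 1 lower (Adgre1, -1.07) at day 5. Within each genotype the monocyte sum was lower at day 5 than at day 3, while Egfl7 stood higher. Lyz2 made up most of that sum, at 4720 and 6310 RPKM at day 3 and 4400 and 5380 at day 5 in wild type and knockout. By gene, 3 of the 8 were higher and 5 lower at day 5 in each genotype. Csf1r and Ccr2 were higher in both. Csf1r, at 269 and 427 RPKM at day 3 and 309 and 475 at day 5, had the order of libraries of Egfl7. The 20 proliferation genes, given below, had sums in the same order of libraries as Egfl7. The part of either in the Egfl7 level was not tested. Egfl8, a relative of Egfl7, lay between 2.37 and 2.93 RPKM, with genotype differences of 0.07 and 0.22. An intron of Egfl7 holds the microRNA miR-126, which is known for a part in stem cell quiescence and in leukemia. The mature arm miR-126a-3p lies at chr2:26591402-26591423 (+) of GRCm38.p6 and is shown with its seed in capitals, since it shares the transcript of the gene with the largest difference.
miR-126a-3p: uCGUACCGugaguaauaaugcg
The hairpin genes Mir126a and Mir126b stood at 1 read in all 4 libraries, the floor of the table, and a library of polyadenylated RNA does not measure the mature microRNA.

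Cd34, the sialomucin used to mark progenitors, differed between genotypes at day 3 and hardly at day 5. It stood at 33.7 RPKM in wild type and 56.6 in the knockout at day 3, and at 73.9 and 77.1 RPKM at day 5. Wild type at day 3 was the low library, and the day 5 libraries were the highest and differed by less than counting error. The knockout held 1.68 times the wild-type level at day 3 (1.57 to 1.80) and 1.04 times at day 5 (0.991 to 1.10), and the genotype ratio changed by a factor of 0.620 (0.569 to 0.676). Its day 3 difference of 0.73 was above that of 96.7% of all genes and under the size rule, and it was 0.57 after the median ratio rescaling.

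The ratio of Cd34 to other progenitor receptors differed between the libraries. Cd34 over Kit, the stem cell factor receptor, was 3.46 (3.17 to 3.79) in wild type and 4.95 (4.59 to 5.34) in the knockout at day 3, and 6.80 (6.31 to 7.33) and 13.6 (12.3 to 15.1) at day 5. Cd34 over Flt3 was 1.12 (1.04 to 1.21) and 1.76 (1.65 to 1.87) at day 3, and 0.872 (0.833 to 0.913) and 1.36 (1.30 to 1.43) at day 5. On each day the knockout thus had the larger value of either ratio. At day 5 the Cd34 levels themselves hardly differed, at 73.9 RPKM in wild type and 77.1 in the knockout. The day 5 contrast lay in the denominators, Kit at 10.9 and 5.67 RPKM and Flt3 at 84.8 and 56.6 RPKM. Kit is also on the mast cell and basophil list, and Flt3 on that of conventional dendritic cells. Markers of mast cells and basophils, of which mast cells carry Cd34, summed to 217 RPKM in wild type and 178 in the knockout at day 3 and to 265 and 52.5 at day 5, with the mast cell proteases Cma1, Tpsb2 and Mcpt4 at 1 read in all libraries.

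**Figure D2:**
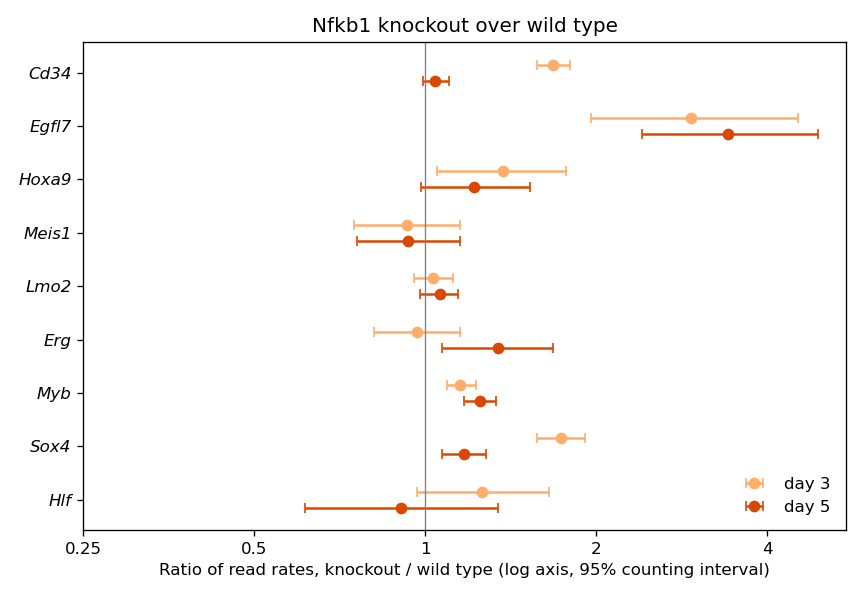
Ratio of read rates in the knockout over wild type for each gene at day 3 (light) and day 5 (dark), on a log axis, with exact 95% counting intervals. Egfl7 lies near 3 at both days, Cd34 and Sox4 lie near 1.7 at day 3 and closer to 1 at day 5, and Meis1 and Lmo2 lie close to 1.

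Among the HOX and MEIS pair, Hoxa9 varied more than Meis1. Hoxa9, a homeobox factor of progenitors, stood at 2.19 RPKM in wild type and 2.99 in the knockout at day 3, and at 3.11 and 3.80 RPKM at day 5. Wild type at day 3 was again the lowest library and the knockout at day 5 the highest. Knockout over wild type, its ratio was 1.37 at day 3 (1.05 to 1.77) and 1.22 at day 5 (0.981 to 1.53), on 102 to 179 reads per library. Meis1 stood at 3.43, 3.19, 3.63 and 3.40 RPKM, in the order wild type then knockout at day 3 and the same at day 5, and each neighbouring pair in the order of these levels had an interval that included 1. Hoxa9 over Meis1 was 0.638 (0.495 to 0.819) in wild type and 0.937 (0.747 to 1.17) in the knockout at day 3, and 0.855 (0.687 to 1.06) and 1.12 (0.904 to 1.39) at day 5. Hoxa7, the neighbour of Hoxa9 in its cluster, was near it in level and order, at 2.08, 2.78, 2.89 and 3.49 RPKM in the same libraries, while Hoxa10 on the other side lay between 0.210 and 0.402 RPKM.

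The LMO2 and ERG genes differed from each other mainly in their course. Lmo2 stood at 50.8 RPKM in wild type and 52.5 in the knockout at day 3, and at 57.9 and 61.1 RPKM at day 5. Its genotype ratios were 1.03 (0.954 to 1.12) and 1.06 (0.980 to 1.14), and the difference at day 3, 0.05, turned to -0.12 after the median ratio rescaling. Both intervals include 1, and a knockout level above 1.14 times that of wild type lies outside both. Erg stood at 5.46 RPKM in wild type and 5.27 in the knockout at day 3, and at 2.83 and 3.80 RPKM at day 5. Both day 5 libraries lay below both day 3 libraries. Its genotype ratio was 0.966 at day 3 (0.812 to 1.15) and 1.34 at day 5 (1.07 to 1.68). Erg over its close relative Fli1 was 0.127 (0.112 to 0.145) and 0.129 (0.113 to 0.147) at day 3 and 0.0694 (0.0582 to 0.0822) and 0.0959 (0.0821 to 0.112) at day 5, and Fli1 itself lay between 39.6 and 42.9 RPKM.

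Myb and Sox4, factors of proliferating progenitors, were both higher in the knockout at each day by amounts under the size rule. Myb stood at 33.6 RPKM in wild type and 38.8 in the knockout at day 3, and at 26.5 and 33.0 RPKM at day 5. Its genotype ratio was 1.15 (1.09 to 1.23) at day 3, where the difference of 0.20 became 0.04 after the median ratio rescaling, and 1.25 (1.17 to 1.33) at day 5. Sox4 stood at 8.56 RPKM in wild type and 14.8 in the knockout at day 3, and at 11.8 and 13.8 RPKM at day 5. As for Cd34, wild type at day 3 was the low library, and the other 3 lay closer together. The genotype ratio of Sox4 was 1.73 at day 3 (1.57 to 1.91) and 1.17 at day 5 (1.07 to 1.28), and it changed by a factor of 0.673 (0.590 to 0.769). Sox4 over Lmo2 was 0.168 (0.153 to 0.186) and 0.282 (0.261 to 0.306) at day 3 and 0.204 (0.187 to 0.222) and 0.225 (0.208 to 0.244) at day 5.

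Of 20 proliferation genes 0 passed the size rule between genotypes at either day. Their differences lay above 0 for 19 at day 3 and 20 at day 5, where 66.6% and 51.2% of all genes did, with medians of 0.57 and 0.52 against 0.13 and 0.01 for all genes. Their summed level was 675 and 954 RPKM at day 3 and 910 and 1290 RPKM at day 5 in wild type and knockout. Markers of B cell precursors, cells that also use Sox4, Myb and Erg, summed to 409 and 392 RPKM at day 3 and 228 and 155 RPKM at day 5. The part of either in the levels of these factors was not tested.

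Hlf, a PAR bZIP factor whose expression is typical of the most immature cells, was the least abundant of the 9. It stood at 1.16 RPKM in wild type and 1.46 in the knockout at day 3 and at 0.657 and 0.596 RPKM at day 5, on 52 to 134 reads. Both intervals of the genotype ratio included 1, at 1.26 (0.966 to 1.65) and 0.907 (0.613 to 1.34), and both day 5 libraries lay below both day 3 libraries.

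Between the days, Cd34 in wild type was higher by the size rule, where 1.80% of all genes were higher, and no member was lower in either genotype, where 2.05% of genes in wild type and 3.01% in the knockout were. In either direction 3.85% of all genes passed in wild type and 3.61% in the knockout. Cd34 at day 5 over day 3 was 2.20 (2.06 to 2.35) in wild type, a difference of 1.11 that became 0.94 after the median ratio rescaling. In the knockout it was 1.36 (1.29 to 1.44). No member was higher by the rule in the knockout, where 0.594% of genes were. These day ratios share their day 3 libraries with the genotype ratios above and are no second observation of them. The median over the 8 genes was 0.20 in wild type and 0.14 in the knockout, against 0.16 and 0.04 for all genes.

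The genes split by direction over time. Erg, Myb and Hlf were lower at day 5 in both genotypes with intervals that excluded 1. Erg stood at 0.518 (0.420 to 0.637) of its day 3 level in wild type and at 0.720 (0.594 to 0.871) in the knockout, Myb at 0.788 (0.737 to 0.842) and 0.851 (0.801 to 0.905), and Hlf at 0.568 (0.405 to 0.790) and 0.409 (0.291 to 0.567). Cd34, Hoxa9 and Lmo2 were higher at day 5 in both. Hoxa9 had ratios of 1.42 (1.10 to 1.84) and 1.27 (1.02 to 1.59), and Lmo2 of 1.14 (1.05 to 1.23) and 1.16 (1.08 to 1.26), of which the wild-type difference of 0.19 shrank to 0.02 after the median ratio rescaling. The intervals of Meis1 included 1 in both, at 1.06 (0.860 to 1.31) and 1.07 (0.858 to 1.32). Egfl7 had 1.27 (0.786 to 2.08) in wild type and 1.47 (1.13 to 1.93) in the knockout, and Sox4 had 1.38 (1.24 to 1.53) in wild type and 0.928 (0.852 to 1.01) in the knockout. No member changed its genotype difference between the days by the rule, where 1.00% of all genes did so upward and 2.63% downward (3.63% in all), and the median change was 0.02 against -0.14 for all genes.

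**Figure D3:**
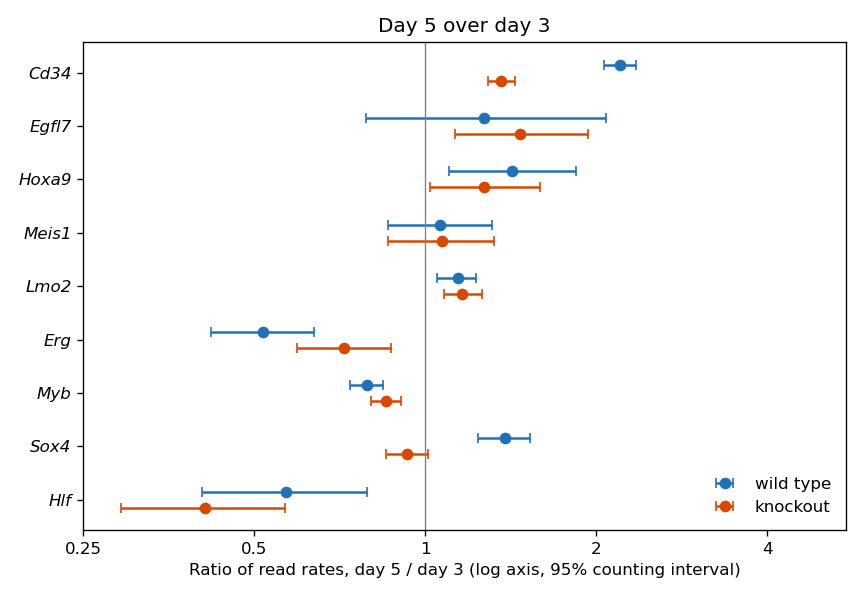
Ratio of read rates at day 5 over day 3 for each gene in wild type (blue) and the knockout (orange), on a log axis, with exact 95% counting intervals. Erg, Myb and Hlf lie below 1 in both genotypes, Cd34 lies above 1 in both and farther in wild type, and Sox4 lies above 1 in wild type and just below it in the knockout.

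Other stem and progenitor genes were taken from 4 lists by role, and 42 of 62 passed the filter. By the size rule 1 of them was higher in the knockout and 0 were lower at day 3, while 1 was lower and 0 were higher at day 5. Over all genes 0.976% were higher and 0.882% lower at day 3, and 1.16% and 3.22% at day 5, so that 1 of 42 is near the background. The 42 had medians of 0.10 and -0.10 against 0.13 and 0.01 for all genes. At day 5, 13 of the 42 were above 0, where 51.2% of all genes were.

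The gene higher at day 3 was Ly6a, the surface protein Sca-1 of stem cells, which interferon also induces. It stood at 84.3 RPKM in wild type and 170 in the knockout at day 3, and at 85.4 and 161 RPKM at day 5. Monocyte markers were also higher in sum in both knockout libraries, as given beside Egfl7. The genotype ratio of Ly6a was 2.02 (1.88 to 2.16) at the earlier and 1.88 (1.76 to 2.02) at the later day, and the day 3 difference of 1.00 lay at the limit of the rule and became 0.84 after the median ratio rescaling. Ly6a was thus, like Egfl7, higher in both knockout libraries than in both wild-type libraries.

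The gene lower at day 5 was Gata2, a zinc finger factor of stem cells, mast cells and basophils and a partner of LMO2 and ERG. It stood at 6.83 and 5.82 RPKM at day 3 and 6.45 and 2.34 RPKM at day 5 in wild type and knockout, a ratio of 0.363 (0.292 to 0.450) at day 5. No other LMO2 and ERG partner passed the rule between genotypes, and the median over the 12 genes was 0.19 at day 3 and -0.08 at day 5. Tal1, the basic helix-loop-helix partner of LMO2, was the gene of that list whose genotype difference dropped by the rule between the days, by 1.12, from a ratio of 1.45 (1.22 to 1.73) to 0.567 (0.486 to 0.660). Tal1 was chosen after its values were seen.

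HOX and MEIS partners had medians of -0.03 and -0.21 over 8 genes. Other stem cell regulators had medians of -0.00 and -0.07 over 10 genes with 0 past the rule.

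Surface markers of stem and progenitor cells had a median of 0.15 at day 3 and -0.40 at day 5 over 12 genes. Among the 12 is Csf1r, which is also on the monocyte list. In wild type 3 of the 12 were higher at day 5 by the rule, Esam, Flt3 and Slamf1. Their ratios were 4.38 (2.97 to 6.63), 2.83 (2.68 to 2.99) and 3.75 (2.87 to 4.94). In the knockout the same genes had ratios of 1.62 (1.06 to 2.49), 1.76 (1.66 to 1.86) and 1.65 (1.23 to 2.22). Kit, named after its values were seen and also a mast cell gene, stood at 9.72 and 11.5 RPKM at day 3 and at 10.9 and 5.67 RPKM at day 5 in wild type and knockout, so that its knockout level was the higher at day 3 and the lower at day 5. Flt3 is also 1 of the 11 conventional dendritic cell markers, of which 6 were higher by the rule at day 5 in wild type. Those 11 summed to 1020 RPKM at day 3 and 1840 RPKM at day 5 in wild type, of which H2-Aa held 651 and 1190. Esam, Slamf1 and Tal1 are also genes of megakaryocytes, whose 14 markers summed to 414 and 471 RPKM at day 3 and 1030 and 468 RPKM at day 5. Of the 14 megakaryocyte markers 9 were lower by the rule in the knockout at day 5. The part of megakaryocytes or dendritic cells in the surface marker values was not tested.

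**Figure D4:**
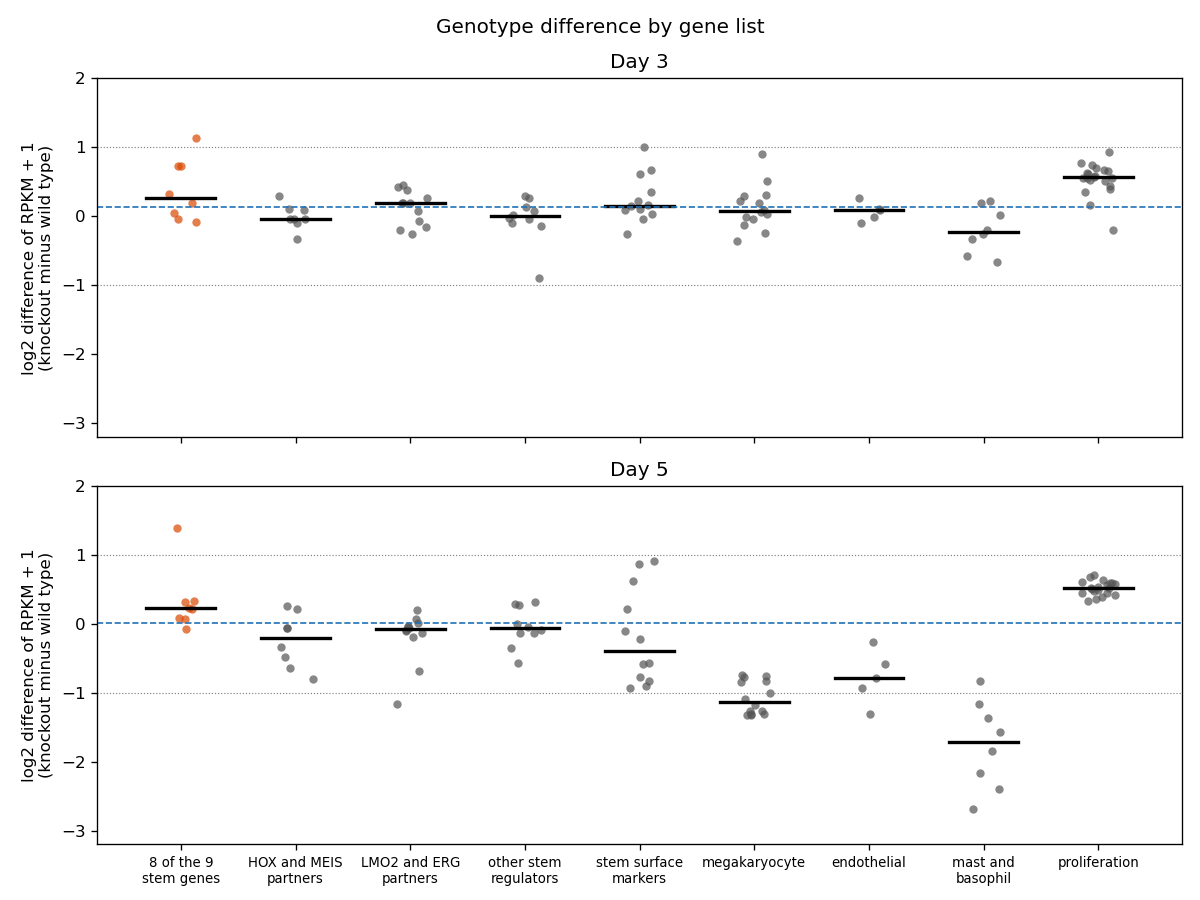
Genotype difference, as log2 of RPKM + 1 in the knockout minus wild type, at day 3 (top) and day 5 (bottom) for each gene averaging 1 RPKM or more in 9 lists; black bars are list medians, the dashed line is the median of all genes and dotted lines are the size rule. The 8 plotted stem genes have medians of 0.26 and 0.22. At day 5 the megakaryocyte markers have a median of -1.14, and the joint list of mast cell and basophil markers has -1.71.

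Relatives of the members were mostly low or little different. Of 20 paralogs 9 passed the filter, and none was past the rule between genotypes. Lmo1, a relative of Lmo2, was higher at day 5 in wild type by the rule, at 2.93 and 8.38 RPKM, a ratio of 2.86 (2.00 to 4.16), and had 3.41 and 5.66 RPKM in the knockout. Of 15 genes beside the members in the genome 9 passed the filter, among them Mir126b at 1 read and Mir196b at 1 or 2 reads per library, whose short length alone brings them past it. Mmd, next to Hlf, was higher at day 5 in wild type, at 7.83 and 18.4 RPKM, a ratio of 2.35 (2.06 to 2.69), which fell just short of the rule after the median ratio rescaling (0.98).

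Genes near the mean course of the 8 members past the filter, and near that of Egfl7, were looked for over the 4 libraries. The measure was the distance between centred log2 profiles, among 8055 genes averaging 5 RPKM or more. The members split by direction over time, so their mean is not the course of each. The mean profile of the 8 genes was -0.25 for wild type and 0.13 for the knockout at day 3, and -0.09 and 0.22 at day 5. Nearest to it were Grpel1 (distance 0.00884), Twnk (0.0289), Zfp639 (0.0338), Mdh2 (0.0352) and Prdx1 (0.0359). Nearest to Egfl7, the member of widest range, were Mir6986 (0.116), on 9 to 27 reads, Adgre4 (0.143), an adhesion receptor of macrophages, and Ctsc (0.175), a lysosomal protease. Adgre4 stood at 23.6 and 52.5 RPKM at day 3 and 26.3 and 65.0 RPKM at day 5 in wild type and knockout, and Ctsc at 39.8 and 81.0 and at 39.1 and 112 RPKM. The scale of RPKM + 1 understates the change of Egfl7, a low gene, more than that of Adgre4 and Ctsc. Knockout over wild type, read ratios at day 3 and day 5 were 2.22 and 2.47 for Adgre4 and 2.03 and 2.86 for Ctsc. Those of Egfl7 were 2.94 and 3.41. With 4 points each, such likeness is a description of these libraries on that scale.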

How the data were processed

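Each library has 1 column of RPKM in the deposited table, as its header names them. HISAT2, SAMtools and build mm9 are named, with no version, in what comes per the submitters' processing notes. How reads were counted, on which annotation and with which strand setting is not given in the sources used here, so reads of a gene and an antisense partner may not be separated. Per the labels' protocols, trizol was used for extraction and a Kapa mRNA kit for the libraries.

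Each RPKM value is a whole number of steps, 1 step per read. From these steps the library totals, gene lengths and whole reads were recovered for all 26026 genes (tolerance 0.003 reads), with the multiple of the length set by reference transcripts for 591 genes. No value was 0, so genes without reads stand at 1 read, or 1 read was added to each gene. Differences of log2(RPKM + 1) were computed without rescaling, for genes averaging 1 RPKM or more, and a size rule of 1 was applied. With 1 library per group no test was made. Intervals of ratios are Clopper-Pearson 95% intervals of reads, those of RPKM are exact Poisson intervals, and the change of a genotype ratio between days has a large-sample interval of its log. All cover counting error only and treat reads as independent molecules, which reads without molecular identifiers are not.

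The members and gene lists were chosen with earlier results of these data known. Every member is named; of each list of stem cell genes, paralogs and neighbours, up to 4 genes with the largest difference past the rule are named, except for a result that is not reported here, and any other gene is said to be chosen after its values were seen or stands beside a member as a relative, neighbour or marker. Marker lists cover endothelial, stromal, megakaryocyte, mast and basophil, B precursor, T, erythroid, neutrophil, monocyte and dendritic cells. Alternatives were a pseudocount of 0.1 or of 5 RPKM, the filter dropped or raised to 5 RPKM, and libraries rescaled by their median ratio or to the same sum of RPKM. A filter of 20 recovered reads on average was added after the data were seen. Promoter windows are RefSeq's, of GRCm38.p6, cut to the 250 bases before the start, and gene positions in mm9 were not used. The procedures were tested on simulated libraries. Python 3.11.15, numpy 2.4.6, pandas 2.3.3, scipy 1.17.1 and matplotlib 3.10.9 were used.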

Additional observations from a re-analysis of the deposited data

Results flagged for a closer look

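For 2 genes the ratios of a pair of groups lay on opposite sides of 1, and the counting interval of the change between them excluded 1. In each pair the ratio below 1 had an interval that includes 1, so opposite movement is not shown. The difference was not tested across replicates, since each group has 1 library. Sox4 at day 5 over day 3 had a ratio of 1.38 in wild type. The knockout had 0.928, with an interval of 0.852 to 1.01 that includes 1, and the change between genotypes was 0.673 (0.590 to 0.769). Erg in the knockout over wild type had a ratio of 0.966 at day 3, with an interval of 0.812 to 1.15, and of 1.34 at day 5. Its change between the days was 1.39 (1.06 to 1.83).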

How the results depend on the processing

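Of the 40 differences of the 8 genes (5 comparisons each), 0 that passed the size rule changed sign under any alternative. Rescaling by the median ratio gave 3 the other sign, and rescaling to the same sum of RPKM 1, all of them small. A pseudocount of 5 RPKM left 0 members higher by the rule at day 3 and at day 5, as did a mean of at least 5 RPKM, which removes Egfl7. The median ratio rescaling left 0 members higher at day 5 in wild type. The median over the members moved as follows. At day 3 between genotypes it was 0.46 at a mean of at least 5 RPKM and 0.12 by the median ratio. Between days in wild type it was 0.30 and 0.07. For the change of the genotype difference it was -0.25 at a mean of at least 5 RPKM, 0.15 by the median ratio and 0.12 at the same sum of RPKM. The filter removes genes and the rescaling shifts all genes of a library alike. Over all genes, the higher calls ran from 27 to 228 at day 3 and from 54 to 225 at day 5 between genotypes, against 115 and 137, and the lower ones from 20 to 221 and from 106 to 648, against 104 and 380. Between days they ran from 58 to 418 higher (212) and 78 to 386 lower (242) in wild type, and from 9 to 152 higher (70) and 151 to 529 lower (355) in the knockout. For the change between days they ran from 30 to 207 (118) and from 84 to 610 (310). No paired analysis was possible because each group has 1 library. Depth limits Egfl7, Hoxa9, Meis1, Erg and Hlf, whose reads per library lay between 32 and 272.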
